A study of Mus musculus with 20 samples.

Results

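The Slc22 family of organic ion transporters was measured in mouse kidney by 10 probe sets, 1 for each of 10 genes. A probe set is the group of short oligonucleotides that reports 1 transcript on an array. The members were all probe sets that the platform annotation assigns to a single gene whose symbol starts with Slc22a, 10 of the 10833 probe sets with 1 gene and of 12422 in all. All 10 lay above the intensity minimum used for testing. They were Slc22a6, Slc22a12 and Slc22a30 on chromosome 19, Slc22a2 on chromosome 17, Slc22a4, Slc22a5 and Slc22a21 on chromosome 11, Slc22a17 on chromosome 14, Slc22a18 on chromosome 7 and Slc22a23 on chromosome 13. In RefSeq, Slc22a5, Slc22a21 and Slc22a4 follow each other without another protein-coding gene between them. Slc22a30, Slc22a8 and Slc22a6 also form a run of protein-coding genes.

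The 4 groups were Hyp kidneys after low phosphate diet, Hyp kidneys after control diet, normal kidneys after low phosphate diet and normal kidneys after control diet, with 5 arrays in each. All were labelled C57BL/6J. Hyp mice carry a mutation of the X-linked gene Phex, waste phosphate in the urine and serve as a model of X-linked hypophosphatemia. Mice ate the diet for 3 days (8 arrays) or 5 days (12 arrays), and 12 arrays were from males and 8 from females. Each array held RNA pooled from 3 mice, so p-values measure the spread between pools. The ages of the mice and the phosphate content of the diets are not given in the sources used here.

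Most Slc22 proteins sit in the plasma membrane of epithelial cells and move organic anions, organic cations or zwitterions across it. In the proximal tubule, transporters of the basolateral membrane take drugs, toxins and metabolites from the blood, and carriers of the brush border release them into the urine or recover them from it. Slc22a6, also called Oat1, exchanges organic anions for dicarboxylates, and Slc22a2, also called Oct2, takes up organic cations along the membrane potential. Several renal family members are known to be controlled by sex hormones and by hepatocyte nuclear factors.

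The bases just before the start of transcription are shown for the 3 genes on which the results below turn, and for Slc22a28, which shares a probe set with Slc22a30. Each is the stretch of 250 bases upstream of the gene start in RefSeq, on build GRCm38.p6, read 5′ to 3′ on the strand of the gene. In the first pair, capitals mark GTTAAT or its reverse complement ATTAAC, a core motif of hepatocyte nuclear factor 1. In the second pair, capitals mark the bases at which Slc22a30 and Slc22a28 differ in an alignment.
Slc22a6, chr19:8617746-8617995, plus strand: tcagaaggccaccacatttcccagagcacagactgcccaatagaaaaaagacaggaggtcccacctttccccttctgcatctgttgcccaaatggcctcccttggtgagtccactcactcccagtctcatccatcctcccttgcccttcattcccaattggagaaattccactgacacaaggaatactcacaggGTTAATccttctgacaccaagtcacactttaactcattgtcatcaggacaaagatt
Slc22a2, chr17:12583939-12584188, plus strand: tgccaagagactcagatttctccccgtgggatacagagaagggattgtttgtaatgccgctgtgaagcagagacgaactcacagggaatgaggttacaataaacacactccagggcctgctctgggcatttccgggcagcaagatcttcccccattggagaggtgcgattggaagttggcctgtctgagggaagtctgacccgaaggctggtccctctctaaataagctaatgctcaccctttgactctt
Slc22a30, chr19:8405106-8405355, minus strand: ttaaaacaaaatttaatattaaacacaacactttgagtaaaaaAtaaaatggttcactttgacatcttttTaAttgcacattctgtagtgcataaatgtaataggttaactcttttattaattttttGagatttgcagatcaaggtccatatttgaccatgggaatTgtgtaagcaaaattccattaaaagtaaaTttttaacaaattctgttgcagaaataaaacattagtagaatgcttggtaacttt
Slc22a28, chr19:8131983-8132232, minus strand: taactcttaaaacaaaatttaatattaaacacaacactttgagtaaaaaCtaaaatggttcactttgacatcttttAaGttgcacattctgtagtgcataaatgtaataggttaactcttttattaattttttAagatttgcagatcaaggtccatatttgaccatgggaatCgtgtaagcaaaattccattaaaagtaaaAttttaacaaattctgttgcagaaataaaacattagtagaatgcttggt

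The upstream sequences of Slc22a30 and Slc22a28 were nearly the same. Of 244 aligned bases 238 were identical (97.5%) and 6 differed. The motif GTTAAT, on either strand, was present in 2113 of 32851 mouse promoters of this length (6.43%), and Slc22a6 was the only one of 9 members with a promoter entry that held it. The steroid receptor motif AGAACA, or TGTTCT on the other strand, was present in 5284 promoters (16.1%), and Slc22a18 was the only one of the 9 that held it. A match describes these letters only.

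Several arrays stood apart in ways that bear on the results. The arrays, numbered 01 to 20 in their titles, fall into 6 runs that each hold 1 sex and 1 duration, called array sets here. Arrays 05 to 08 (females, 5 days) had the lowest median rank correlation with the other arrays, 0.895 to 0.934 against 0.943 to 0.969 elsewhere. Their actin 3′ to 5′ signal ratio, a sign of RNA quality, was 1.74 to 2.61, against 1.22 to 1.98 elsewhere. Array 10 (Hyp, low phosphate, male, 5 days) carried signal of 5 liver marker genes, with a summed intensity of 16141.1 and an Alb intensity of 13096.7. The next highest liver sum was 2175.5, on array 08. The 16 proximal tubule markers were present on every array, and their summed intensity ran from 103534.2 to 130609 on low phosphate diet and from 102692.9 to 115193.4 on control diet.

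The first question was how low phosphate diet affects the organic anion and cation carriers of the basolateral membrane. Slc22a6 was lower on low phosphate diet in 9 of 10 pairs of arrays matched for genotype and array set. It was the only member that passed the test when diet was averaged over genotypes. Signal intensities are in arbitrary units of the authors' common scale, and levels of different probe sets were not compared.

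In Hyp kidneys on low phosphate diet, Slc22a6 had 2246.1 (male) and 1422.2 (female) after 3 days, and 2855.4 and 2491 (males) and 1039 (female) after 5 days. In Hyp kidneys on control diet it had 3310.3 (male) and 2264.9 (female) after 3 days, and 2821.6 and 4157.9 (males) and 1827.2 (female) after 5 days. The groups overlapped, with females low in both, and within each sex and duration the low phosphate array was the lower one in every pair except arrays 04 and 03.

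In normal kidneys on low phosphate diet, Slc22a6 had 2804.6 (male) and 1634.8 (female) after 3 days, and 3016 and 2634.4 (males) and 1277.3 (female) after 5 days. In normal kidneys on control diet it had 3174 (male) and 2303 (female) after 3 days, and 3546.2 and 4354.8 (males) and 1790.2 (female) after 5 days. All 5 normal pairs had the lower value on low phosphate diet, although the groups as a whole overlapped.

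Group means of Slc22a6 were 2011 ± 757 in Hyp kidneys on low phosphate diet and 2876 ± 909 in Hyp kidneys on control diet (SD, n = 5 each). In normal kidneys they were 2273 ± 769 on low phosphate diet and 3034 ± 1013 on control diet (SD, n = 5 each). Averaged over genotypes, and with sex and days as terms, the log2 difference was -0.48 ± 0.08 (SE), a fold of 0.717 (limma, adjusted p = 0.00749). In this comparison 26 of 8695 probe sets (0.299%) passed as lower on low phosphate diet, and 0.472% passed in either direction. In a bulk kidney sample, fewer proximal tubule cells and less Slc22a6 RNA per cell cannot be told apart. Of the 16 proximal tubule markers, 12 were higher on low phosphate diet and 4 lower in this comparison, with 1 past the threshold as higher. In normal mice 14 were higher and 2 lower, and in Hyp mice 8 were higher and 8 lower. Their part in the Slc22a6 values was not tested.

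Within 1 genotype the difference did not pass. It was -0.54 ± 0.11 in Hyp mice (limma, adjusted p = 0.097) and -0.42 ± 0.11 in normal mice (limma, adjusted p = 0.21). No member passed in either comparison, where 0.150% (Hyp) and 0.184% (normal) of all probe sets did. The genotype by diet interaction of Slc22a6 was -0.13 (95% interval -0.47 to 0.21; limma, adjusted p = 1), and 0 of 10 members passed it against 0.0460% of all probe sets.

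The call for Slc22a6 held with any 1 array left out (limma, adjusted p from 0.00135 to 0.0233) and was lost without either of the next sets of arrays. Without arrays 05 to 08 the difference was -0.44 (limma, adjusted p = 0.0858), and without arrays 09, 10, 19 and 20 it was -0.42 (limma, adjusted p = 0.0568). Without array 10, the one with liver signal, it was -0.48 (limma, adjusted p = 0.016), and with array set as a block it was -0.48 (limma, adjusted p = 0.00686). In Hyp mice, leaving out array 03 moved the difference to -0.65 and past the threshold (limma, adjusted p = 0.0114).

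**Figure D1:**
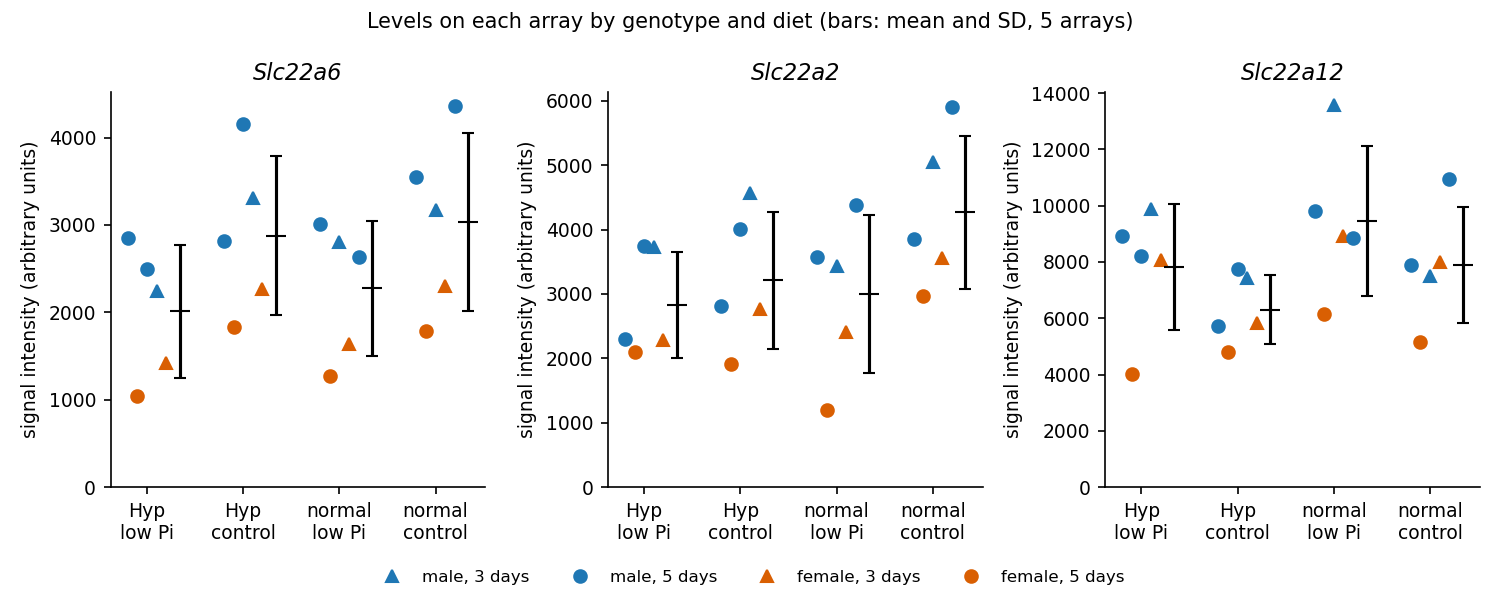
Signal intensity (arbitrary units) of Slc22a6, Slc22a2 and Slc22a12 on each array, by group, with triangles for 3 days, circles for 5 days, blue for males and orange for females, and bars for the mean and SD of 5 arrays. Slc22a6 averaged 2011 and 2876 in Hyp kidneys on low phosphate and control diet, and 2273 and 3034 in normal kidneys on low phosphate and control diet, with females lowest in every group.

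Slc22a2 had the largest negative difference of any member in normal mice but did not pass the test. In normal kidneys on low phosphate diet it had 3426.4 (male) and 2406.1 (female) after 3 days, and 3579.1 and 4381.6 (males) and 1201.8 (female) after 5 days. In normal kidneys on control diet it had 5049.8 (male) and 3565.2 (female) after 3 days, and 3849.2 and 5900.5 (males) and 2963.5 (female) after 5 days. Every normal pair was lower on low phosphate diet, and the smallest gap was that between arrays 02 and 01. The largest, -1.28 on the log2 scale, was between arrays 06 and 05, of the set with the lowest rank correlations. The log2 difference in normal mice was -0.58 ± 0.18 (limma, unadjusted p = 0.00572, adjusted p = 0.313). With each array left out it ran from -0.70 to -0.42 (limma, adjusted p from 0.173 to 0.773).

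In Hyp kidneys Slc22a2 had 3722.4 (male) and 2286.4 (female) after 3 days on low phosphate diet, and 2305.3 and 3741.5 (males) and 2091.7 (female) after 5 days. On control diet the Hyp values were 4572.9 (male) and 2758.9 (female) after 3 days, and 2813.8 and 4002.9 (males) and 1907 (female) after 5 days. The 2 Hyp groups overlapped widely, and 4 of their 5 pairs were lower on low phosphate diet. The difference in Hyp mice was -0.16 ± 0.18 (limma, adjusted p = 0.998). The difference between the genotypes in the diet response was 0.42 (95% interval -0.13 to 0.97), and it did not pass (limma, adjusted p = 1).

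Slc22a12, the brush border exchanger that recovers urate and is also called Urat1, had a difference of the opposite sign to that of Slc22a6. It was higher on low phosphate diet in 8 of 10 pairs. The group means were 7813 ± 2233 in Hyp kidneys on low phosphate diet and 6307 ± 1236 in Hyp kidneys on control diet (SD, n = 5 each). In normal kidneys they were 9458 ± 2674 on low phosphate diet and 7894 ± 2059 on control diet (SD, n = 5 each). The averaged log2 difference of 0.26 ± 0.10 did not pass (limma, adjusted p = 0.383). With array quality weights it was 0.36 and passed (limma, adjusted p = 0.0398).

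Of the other 7 members, none passed in any diet comparison. Slc22a21, a carnitine transporter described in mice and also called Octn3, was higher on low phosphate diet in 9 of 10 pairs, by 0.27 ± 0.15 on average (limma, adjusted p = 0.596). Across all probe sets, 3.53% were higher in at least 9 of 10 pairs and 3.86% were lower in at least 9, as Slc22a6 and Slc22a2 were. Slc22a5, the sodium-dependent carnitine transporter Octn2, differed by 0.10 ± 0.15, and Slc22a4, the ergothioneine transporter Octn1, by -0.16 ± 0.18. The median over the 10 members was -0.09, against 0.01 over all probe sets, and 6 of 10 were negative.

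**Figure D2:**
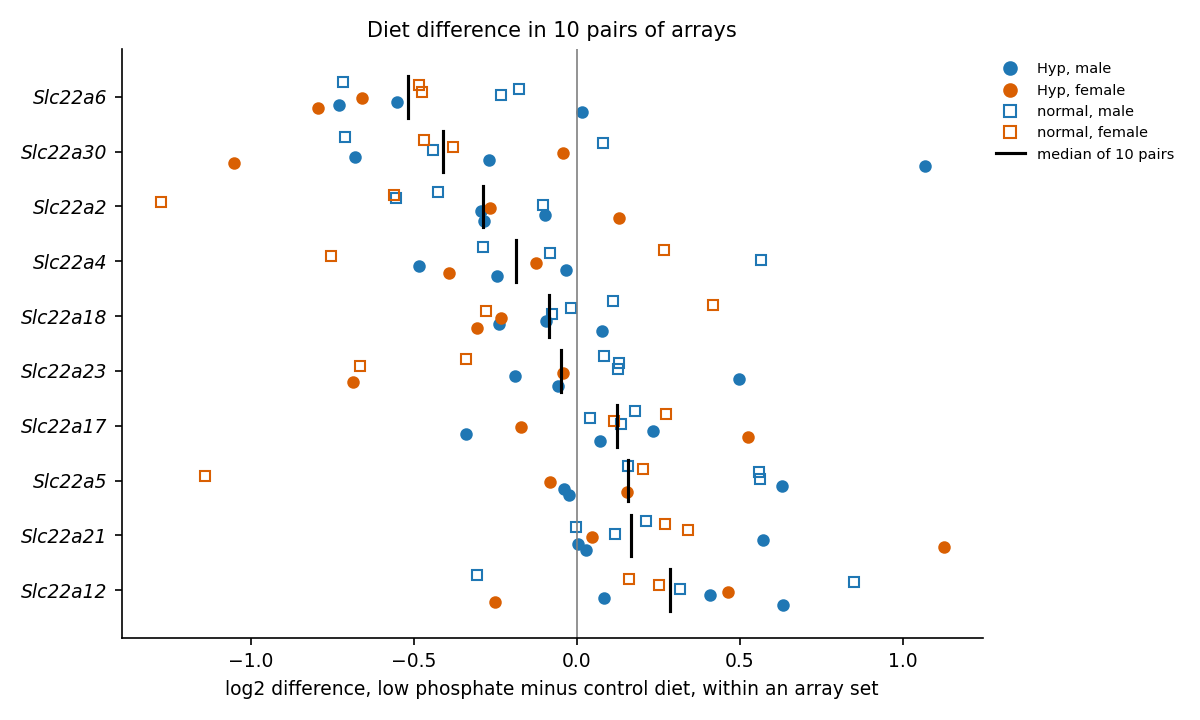
Log2 difference, low phosphate minus control diet, in each of 10 pairs of arrays of the same genotype and array set, for the 10 members, with filled circles for Hyp pairs, open squares for normal pairs and a bar at the median. For Slc22a6 9 pairs lie below 0 and for Slc22a12 8 pairs lie above 0.

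The second question was whether the genotypes differ. No member passed on low phosphate diet, on control diet or averaged over diets, where 0.357%, 0.253% and 1.28% of all probe sets did. Averaged over diets, 9 of 10 members were lower in Hyp kidneys. Their median log2 difference was -0.15, against 0.02 over all probe sets. Of the 16 proximal tubule markers 14 were also lower in Hyp kidneys, 2 of them past the threshold, and their part in the members' values was not tested.

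Slc22a30, a rodent gene of the organic anion branch of the family, had the largest genotype difference of the members. In the 3-day males it had 1303.1 in the Hyp pool and 2943.9 in the normal pool on low phosphate diet, and 2112.4 in the Hyp pool and 2784.6 in the normal pool on control diet. In the 3-day females the values were 105 in the Hyp pool and 320.8 in the normal pool on low phosphate diet, and 109.2 in the Hyp pool and 458.7 in the normal pool on control diet. Each Hyp pool was lower than its normal partner at 3 days.

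After 5 days, arrays 01 to 04 (males) gave 955.4 in the Hyp pool and 1334.2 in the normal pool on low phosphate diet, and 436.3 in the Hyp pool and 1825 in the normal pool on control diet. Arrays 05 to 08 (females) gave 81.5 in the Hyp pool and 248.6 in the normal pool on low phosphate diet, and 209.4 in the Hyp pool and 335.2 in the normal pool on control diet. Arrays 09 and 10 held Hyp males only, with 2177.3 on low phosphate and 2634.1 on control diet, and arrays 19 and 20 held normal males only, with 2470.8 on low phosphate and 4065.8 on control diet. Slc22a30 was thus lower in Hyp kidneys in all 8 pairs within an array set, while the groups as a whole overlapped and the array sets of males differed in level. Across all probe sets 1.38% were lower in 8 of 8 pairs, and Slc22a12 was the other member among them.

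The genotype difference of Slc22a30 averaged over diets was -0.97 ± 0.28 and did not pass (limma, adjusted p = 0.116). With array set as a block it was -1.12 ± 0.18 and passed (limma, adjusted p = 0.00616), as did 1.12% of all probe sets. Leaving out arrays 09, 10, 19 and 20 gave the same difference (-1.12; limma, adjusted p = 0.0151). Those array sets hold 1 genotype each, so under the block they add nothing to the genotype difference, and the 2 fits are not separate support. The difference also passed without array 09 alone (-1.11; limma, adjusted p = 0.0468) and with array quality weights (-1.04; limma, adjusted p = 0.0284). Without array 10 it was -1.10 (limma, adjusted p = 0.0635). On a single diet it did not pass with the block either (-1.02 on low phosphate diet, adjusted p = 0.109, and -1.21 on control diet, adjusted p = 0.0574, limma).

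A further probe set is annotated to both Slc22a28 and Slc22a30 and was therefore not a member. It was lower in Hyp kidneys in 8 of 8 pairs as well, with an averaged difference of -0.85 ± 0.23 (limma, adjusted p = 0.0983). How much signal Slc22a28 RNA gives on the Slc22a30 probe set was not tested.

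**Figure D3:**
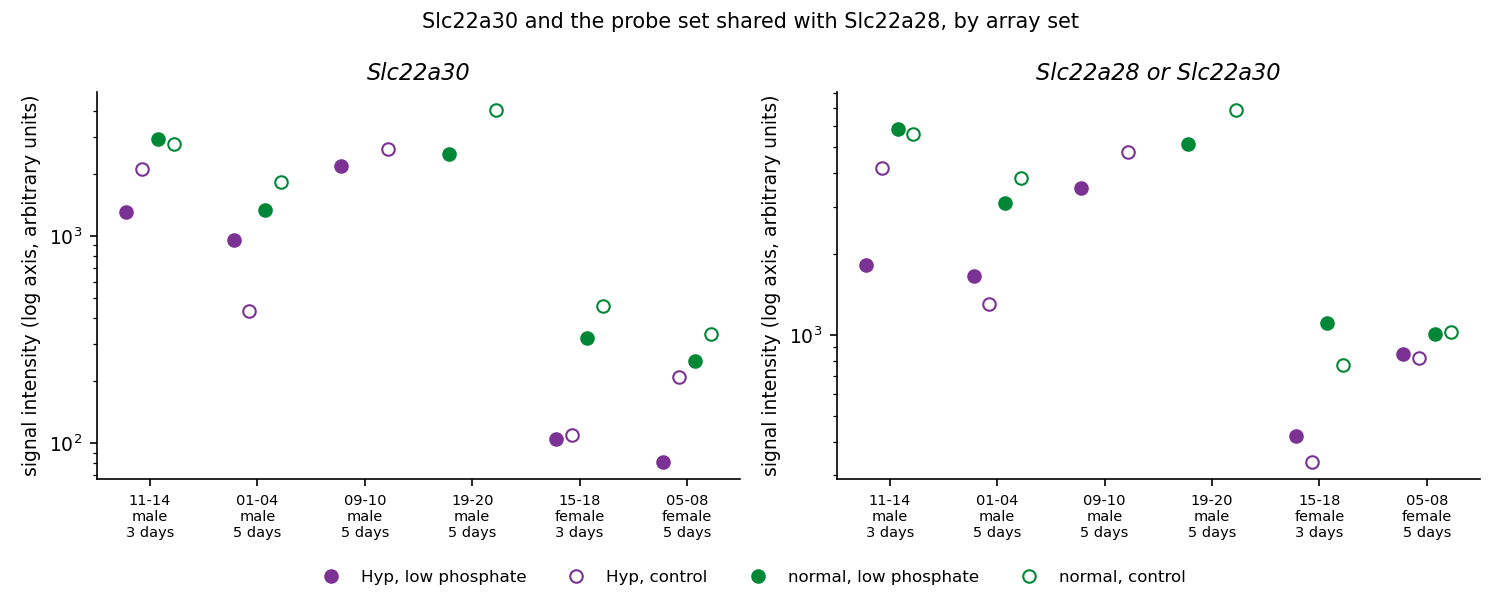
Signal intensity on a log axis (arbitrary units) of Slc22a30 and of the probe set annotated to both Slc22a28 and Slc22a30, by array set, with purple for Hyp, green for normal, filled circles for low phosphate and open circles for control diet. Hyp values lie below their normal partners in each array set that holds both genotypes, and Slc22a30 runs from 436.3 to 4065.8 in males and from 81.5 to 458.7 in females.

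The other genotype values were smaller. Slc22a12 was lower in Hyp kidneys in 8 of 8 pairs by 0.02 to 0.60 on the log2 scale, with an averaged difference of -0.30 ± 0.10 (limma, adjusted p = 0.192). Slc22a18, a gene of an imprinted region, differed by -0.17 ± 0.07 (limma, adjusted p = 0.302), and Slc22a6 by -0.13 ± 0.08 (limma, adjusted p = 0.46). Slc22a2 differed by -0.43 ± 0.18 on control diet (limma, adjusted p = 0.555) and by -0.01 ± 0.18 on low phosphate diet (limma, adjusted p = 0.995).

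Sex gave the largest differences within the family, with 5 of the 10 members past the threshold. Slc22a30, Slc22a6, Slc22a2, Slc22a12 and Slc22a18 were higher in males, and 0 members passed as lower. Of all probe sets 8.67% passed as higher in males and 16.6% in either direction. Each array set held 1 sex, so sex was also tested with array set as a random block, where Slc22a30 and Slc22a6 alone of the members passed and 0.219% of all probe sets did. The females came from only 2 array sets, arrays 05 to 08 being 1 of them, and the males from 4. The p-values with the random block still count arrays rather than sets, so they do not fully reflect these few sets.

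Slc22a30 ran from 436.3 to 4065.8 in males (median 2145, 12 arrays) and from 81.5 to 458.7 in females (median 229, 8 arrays). The female values are dim, and no background estimate comes with the table. The sexes met only at 1 male and 1 female array, and at matched days they did not overlap. The share of all probe sets without overlap between the sexes was not computed, for this or the other members. The log2 difference was 3.01 ± 0.29, a fold of 8.04 (limma, adjusted p = 1.01e-05), and 3.07 ± 0.38 with the random block (limma, adjusted p = 0.000468). The probe set shared with Slc22a28 differed by 2.25 ± 0.24 (limma, adjusted p = 2.87e-05).

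Slc22a6 ran from 2246.1 to 4354.8 in males (median 2936) and from 1039 to 2303 in females (median 1712.5). The sexes overlapped over all days and at 3 days, and did not overlap at 5 days. The log2 difference was 0.86 ± 0.08 (limma, adjusted p = 1.2e-05), and 0.91 ± 0.15 with the random block (limma, adjusted p = 0.00885). At 3 days alone, and equally without arrays 05 to 08, it was 0.60, with adjusted p = 0.068 and 0.0974 (limma).

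Slc22a2 ran from 2305.3 to 5900.5 in males (median 3795) and from 1201.8 to 3565.2 in females (median 2346), and differed by 0.76 ± 0.14 (limma, adjusted p = 0.00178). Slc22a12 differed by 0.52 ± 0.10 (limma, adjusted p = 0.00371) and Slc22a18 by 0.34 ± 0.08 (limma, adjusted p = 0.00797). With the random block these 3 differed by 0.82 ± 0.21, 0.57 ± 0.19 and 0.37 ± 0.13 and did not pass (limma, adjusted p = 0.121, 0.201 and 0.237). Slc22a23, an orphan member, was lower in males at 3 days, from 249.7 to 296.8 against 308.2 to 399.9 in females, and overlapped at 5 days (-0.16 ± 0.11 over all arrays; limma, adjusted p = 0.317). The sexes also did not overlap for Slc22a18 at 5 days, with 3504.5 to 4700.5 in males and 2366.1 to 3485.7 in females, and overlapped at 3 days. The 5-day females are arrays 05 to 08 alone. Without these arrays Slc22a2, Slc22a12 and Slc22a18 differed by 0.60, 0.29 and 0.19 and did not pass (limma, adjusted p = 0.336, 0.751 and 0.808). In that fit 19 of all 8695 probe sets passed.

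The summed proximal tubule markers had a median of 112765 in males and 112267 in females, and 0 of 16 were called higher in males and 1 lower. Both tested adrenal markers were lower in males past the threshold, though not with the random block (limma, adjusted p = 0.289 and 0.339), and their part in the sex differences was not tested.

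**Figure D4:**
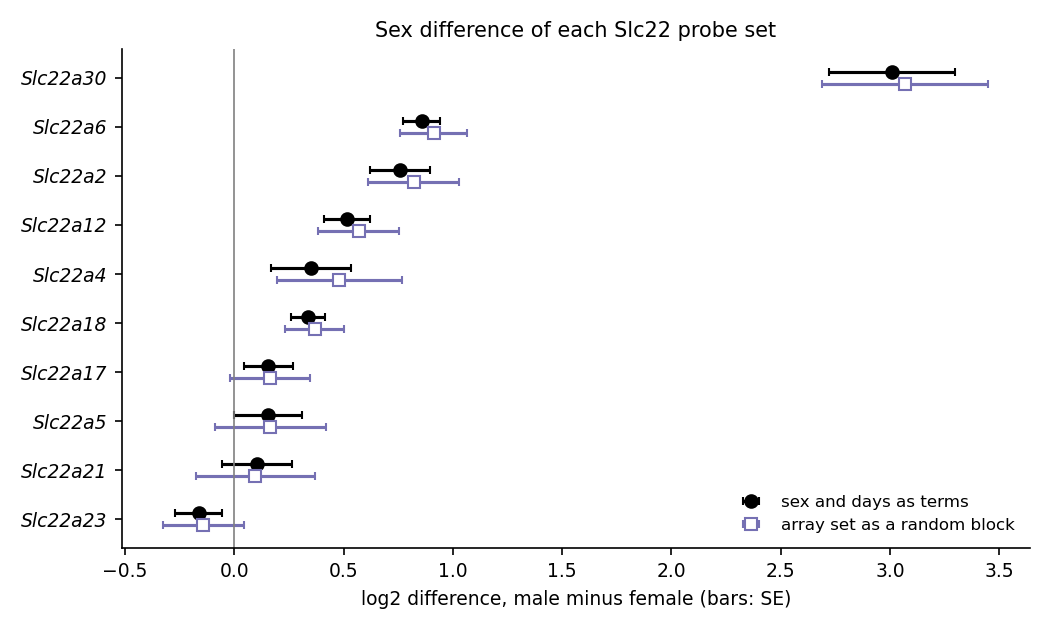
Log2 difference, male minus female, of the 10 members with its SE, from the fit with sex and days as terms (circles) and with array set as a random block (squares). Slc22a30 lies at 3.01 and 3.07 and Slc22a6 at 0.86 and 0.91, and Slc22a23 is the only member below 0.

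The diet and genotype differences were compared between the sexes. No member and none of the 8695 probe sets passed for diet by sex or for genotype by sex, where 290 and 509 probe sets and 1 and 2 members had an unadjusted p under 0.05 in limma. Slc22a6 was lower on low phosphate diet by 0.40 ± 0.11 in males and by 0.60 ± 0.13 in females on the log2 scale. The difference between the sexes was 0.20 (95% interval -0.16 to 0.57; limma, adjusted p = 0.999).

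The time on diet was compared last. Of the 10 members, Slc22a4, Slc22a12 and Slc22a23 were lower after 5 days than after 3 days past the threshold, 3 in all, and 20.2% of all probe sets were (40.9% in either direction). With array set as a random block 0 members passed, against 0.0230% of all probe sets.

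Slc22a4 had the largest difference of the 3. After 3 days it ran from 190.3 to 290.6 over 8 arrays. After 5 days it ran from 36.8 to 166.6 over arrays 01 to 10, and had 287.8 on low phosphate and 359.9 on control diet on arrays 20 and 19. The last pair, normal males after 5 days, lay among or above the 3-day arrays and apart from the other 5-day arrays. The log2 difference, 5 days minus 3 days, was -0.88 ± 0.18 (limma, adjusted p = 0.00152), and -0.75 ± 0.29 with the random block (limma, adjusted p = 0.165). Slc22a12 differed by -0.38 ± 0.10 (limma, adjusted p = 0.00892; 0.316 with the random block) and Slc22a23 by -0.35 ± 0.11 (limma, adjusted p = 0.017; 0.315 with the random block). Without arrays 05 to 08, Slc22a4, Slc22a12 and Slc22a23 differed by -0.36, -0.15 and -0.23 and did not pass (limma, adjusted p = 0.383, 0.539 and 0.271). In that fit 26 of all 8695 probe sets passed.

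**Figure D5:**
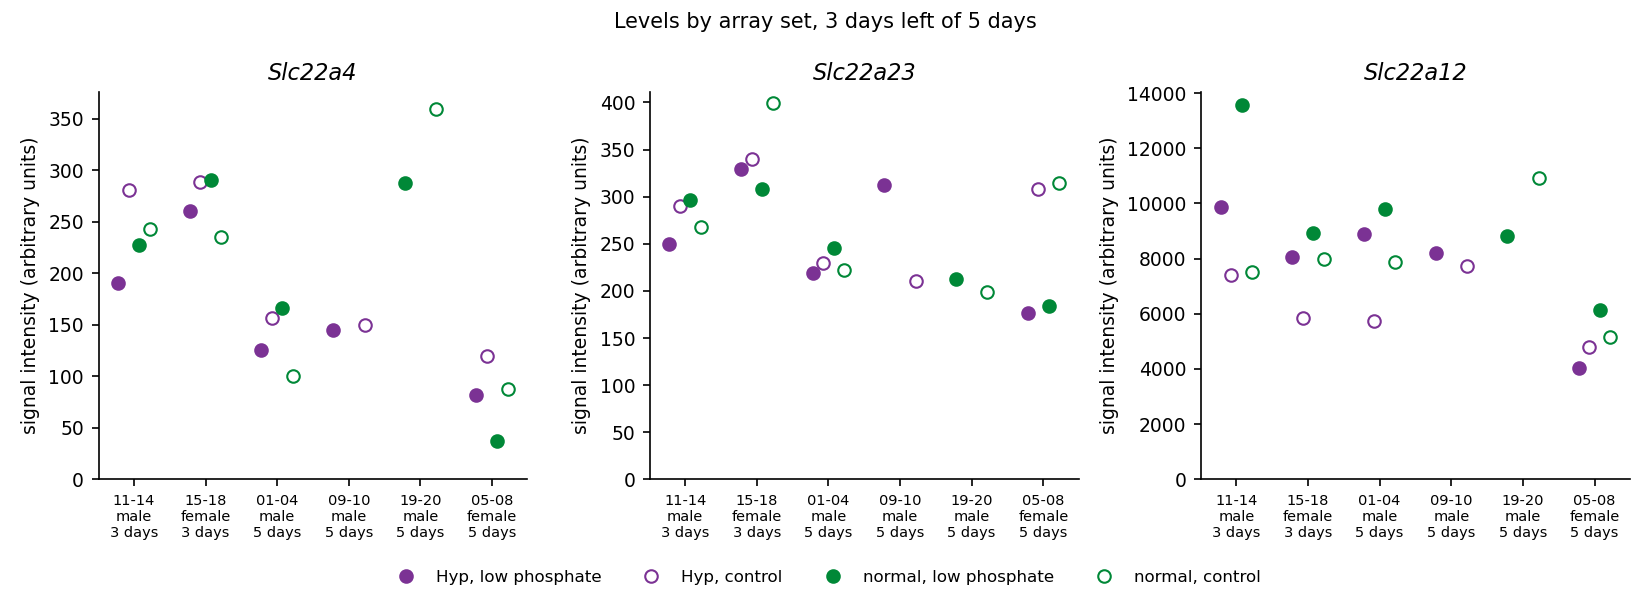
Signal intensity (arbitrary units) of Slc22a4, Slc22a23 and Slc22a12 by array set, with the 3-day sets left of the 5-day sets, purple for Hyp, green for normal, filled circles for low phosphate and open circles for control diet. Slc22a4 reads 287.8 and 359.9 in the 5-day arrays 20 and 19, against 36.8 to 166.6 in the other 5-day arrays.

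The diet difference of Slc22a6 was below 0 at both durations in both genotypes. In Hyp mice it was -0.60 ± 0.20 after 3 days and -0.50 ± 0.16 after 5 days. In normal mice it was -0.33 ± 0.20 after 3 days and -0.47 ± 0.16 after 5 days. The change between durations was 0.10 (95% interval -0.44 to 0.65) in Hyp mice and -0.14 (95% interval -0.69 to 0.40) in normal mice, intervals that hold changes as large as the diet difference itself. For diet by days 0 members and 0 probe sets passed in either genotype, and 234 (Hyp) and 220 (normal) probe sets had an unadjusted p under 0.05 in limma.

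Slc22a2 in normal mice differed by -0.56 ± 0.32 after 3 days and by -0.60 ± 0.26 after 5 days between the diets. In Hyp mice the values were -0.28 ± 0.32 after 3 days and -0.08 ± 0.26 after 5 days. Slc22a12 differed by 0.44 ± 0.22 after 3 days and 0.15 ± 0.18 after 5 days in Hyp mice, and by 0.50 ± 0.22 after 3 days and 0.09 ± 0.18 after 5 days in normal mice. None of these passed, with adjusted p from 0.629 to 1 (limma). Of all probe sets, 0.0230% passed after 3 days and 0.0575% after 5 days in Hyp mice, and 0% after 3 days and 0.0230% after 5 days in normal mice.

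Genes that work beside the family were examined as lists, with each gene represented by its brightest probe set. The partner list holds carriers and pumps that release organic ions into the urine or back to the blood, and scaffold proteins of the brush border, with 10 of 12 genes on the array tested. None of the 10 passed in a diet comparison, and 9 were lower on low phosphate diet when averaged over genotypes, with a median of -0.09 against 0.01 over all probe sets. The moderated t weighs a log2 difference by its error, and the genes with the largest t in each direction are named for diet in this and the next 3 lists. In Hyp mice they were Abcb1b (log2 difference -0.26) and the export pump gene Abcc1 (0.25), and in normal mice the scaffold gene Pdzk1 (-0.12) and Abcc1 (0.19).

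Abcb1b, a P-glycoprotein gene, was higher in Hyp than in normal kidneys on control diet by 0.82 ± 0.15 (limma, adjusted p = 0.0249) and averaged over diets by 0.71 ± 0.11 (limma, adjusted p = 0.00178). It was the only partner gene that passed for genotype, where 0.253% (control diet) and 1.28% (averaged) of all probe sets did. Its probe set was dim, with a median intensity of 90.45. Past the threshold, 4 partners were higher in males (8.67% of all probe sets were), Slc17a1 (0.39), Slco3a1 (0.50), Abcc2 (0.41) and Slc9a3r1 (0.34). Abcc3 (-2.10) and Abcb1b (-0.50) were lower in males. Abcc2, Abcc3, Abcb1b, Slc9a3r1 and Slc9a3r2 were lower after 5 days, by 0.35 to 0.82 on the log2 scale, as were 20.2% of all probe sets. With array set as a random block, 0 of the 6 sex calls (adjusted p from 0.0514, limma) and 0 of the 5 days calls (adjusted p from 0.13, limma) passed.

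Of 7 genes known for higher renal levels in male mice, Odc1, the ornithine decarboxylase gene of polyamine synthesis, was lower on low phosphate diet in normal mice by 0.97 ± 0.18 on the log2 scale (limma, adjusted p = 0.0412) and averaged over genotypes by 0.63 ± 0.13 (limma, adjusted p = 0.0352). It alone of the 7 passed for diet, where 0.184% (normal mice) and 0.472% (averaged) of all probe sets did. By sign, 6 of 7 were negative when averaged. In Hyp mice all 7 were negative, with Odc1 (-0.28) at the largest t and Kap (-0.01) at the smallest, and in normal mice Kap (0.14) was the only positive one. Cyp4b1, a cytochrome P450 gene, was higher in Hyp kidneys by 1.34 ± 0.22 averaged over diets (limma, adjusted p = 0.00353), where 1.28% of all probe sets passed. On low phosphate diet it was higher by 1.65 ± 0.31 (limma, adjusted p = 0.0223), where 0.357% passed. Odc1 (0.55), Cyp4b1 (2.18), Acsm3 (1.61) and Cyp2e1 (1.70) passed as higher in males, as did 8.67% of all probe sets. By sign alone 6 of the 7 were higher in males and 1 was lower. Acsm3 was dim, with a median intensity of 38.75. Kap (0.28) and Cyp2e1 (0.68) were higher after 5 days, beside 40.9% of all probe sets in either direction. With array set as a random block, 1 of the 4 sex calls passed, that of Cyp4b1 (2.21 ± 0.35; limma, adjusted p = 0.00653), and 0 of the 2 days calls did (adjusted p from 0.216, limma).

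The 10 regulators on the list, nuclear receptors and transcription factors of liver and kidney, held no call for diet or genotype. By t, the leading ones were Hnf4a (0.29) and Esr1 (-0.44) in Hyp mice, and Nr1h4 (0.39), the bile acid receptor gene, and Bcl6 (-0.21) in normal mice. Hnf4a (0.95), Stat5b (0.61) and Nr1h4 (0.51) were higher in males and Nr1i3 (-0.43) was lower, beside 16.6% of all probe sets in either direction. After 5 days Esr1 (0.58), Bcl6 (0.52), Stat5a (0.52) and Nr1i3 (0.76) were higher and Stat5b (-0.93) was lower, beside 40.9% of all probe sets in either direction. With array set as a random block, 0 of the 4 sex calls (adjusted p from 0.246, limma) and 0 of the 5 days calls (adjusted p from 0.104, limma) passed.

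The 5 genes of carnitine synthesis and use, the substrate pathway of Slc22a5, gave no call for diet or genotype. All 5 were higher on low phosphate diet in normal mice, with the mitochondrial carrier gene Slc25a20 at the largest t (0.41; limma, adjusted p = 0.263) and Aldh9a1 at the smallest (0.03). In Hyp mice 3 of 5 were higher, Slc25a20 by 0.15, and Cpt1a was at -0.06. Crat was higher in males (0.52), as were 8.67% of all probe sets. After 5 days Cpt1a was higher (0.31), and Crat (-0.77) and Aldh9a1 (-0.37) were lower, beside 40.9% of all probe sets in either direction. With array set as a random block, 0 of these 3 passed (adjusted p from 0.11, limma), and Crat did not pass for sex (adjusted p = 0.239, limma).

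The genes whose values ran most like those of the 3 leading members were sought among 6432 genes, each represented by its brightest probe set. Over the 20 arrays, which share their sex, days and array set, Slc22a6 correlated most with Glb1 (Pearson r = 0.91), Atp11a (0.90) and Med28 (0.89). Slc22a2 correlated most with Gphn (0.91), Glb1 (0.91) and Mfn1 (0.88). Slc22a30 correlated most with Inmt (0.92), Hsd3b2 (0.91) and Nhp2 (0.90). With the means of the 4 strata of sex and days taken out, these r ran from 0.63 (Slc22a30 with Inmt) to 0.89 (Slc22a2 with Gphn).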

How the data were processed

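Kidney RNA pools of 3 mice were measured on 20 arrays, and the authors deposited 1 linear signal intensity per probe set and array. The values share a common scale, with a mean after 2% trimming at each end of 500.254 to 500.309. The software behind them is not stated in the labels used here. No background estimate or depth comes with the table, and precision depends on the number of arrays. Of 12488 probe sets, 66 controls were left out.

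Intensities were taken as log2 after adding 38 (their 20th percentile), which understates differences of dim genes. Probe sets with a mean below the 30th percentile were not tested, which left 8695. Models were fitted in limma 3.58.1 (R 4.3.3) to all 20 arrays, with terms for group and for the 4 combinations of sex and duration, leaving 13 residual degrees of freedom. Interactions with sex or days left 10. Tests were two-sided, with Benjamini-Hochberg adjustment over all 8695 probe sets in each of 13 comparisons and a threshold of 0.05. The random block for array set had a consensus correlation of 0.388. Steps were tested on simulated data. Alternatives were an offset of 1, quantile normalization, other filters, trended and robust moderation, a fit without sex and duration, array set as a block, array weights, subsets of arrays, and each array left out in turn.

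The members, gene lists and tests were chosen with earlier results of these data known. All 10 members matched RefSeq by gene number. The named genes were all members, each gene of the lists of partners, regulators, carnitine handling and male-higher genes that passed in any comparison, the list gene with the largest moderated t in each direction for diet in each genotype, and the 3 genes most alike to Slc22a2, Slc22a6 and Slc22a30. Promoters were aligned with Biopython 1.88.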

Additional observations from a re-analysis of the deposited data

Results flagged for a closer look

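In each of the 4 groups every member was examined for an array far from the other 4, which made 40 sets of 5 values, and chance marks about 1 in 20. Slc22a21 gave both cases found. On array 06 (normal, low phosphate, female, 5 days) it read 171, with the nearest value of that group at 117.1. On array 07 (Hyp, control diet, female, 5 days) it read 15.8, with the nearest value at 80.3. Both arrays belong to arrays 05 to 08, which had the lowest rank correlations with the rest, and the part of that in these values was not tested.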

How the results depend on the processing

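The alternatives were applied to the 26 member differences with an unadjusted p under 0.05 in the main fit (limma). None changed sign, but they were picked for lying far from 0 relative to their error, so a change was unlikely. Outside them, the diet difference of Slc22a5 was 0.31 in males and -0.22 in females, and that of Slc22a23 was 0.10 in males and -0.43 in females. The female value of Slc22a5 rests mostly on arrays 06 and 05, which differed by -1.14. Its other female pairs differed by 0.15, 0.20 and -0.08. The female pairs of Slc22a23 differed by -0.69 and -0.67 in arrays 05 to 08, and by -0.04 and -0.34 in arrays 15 to 18. Neither gene passed for diet by sex. In the diet comparison averaged over genotypes, 1 member passed, and 0 did without terms for sex and days, without arrays 05 to 08, without arrays 09, 10, 19 and 20, in males only, in females only, at 3 days only and at 5 days only. In the same order 16, 20, 45, 2, 0, 0 and 2 of all 8695 probe sets passed, so few or none could be members. Slc22a6 was at -0.48, -0.44, -0.42, -0.40, -0.60, -0.47 and -0.49 in those fits, which hold fewer arrays except the first. With array quality weights 2 members passed, as did 97 of all 8695 probe sets. With each array left out Slc22a6 ran from -0.53 to -0.46 and passed in all 20 fits. For diet in Hyp mice 0 members passed, and 1 did with trended and robust moderation and without array 03, so the range with each array left out was 0 to 1. In those 2 fits 17 and 14 of all 8695 probe sets passed. For genotype averaged over diets 0 passed, and 1 (Slc22a30) did with array set as a block, with array quality weights, without arrays 09, 10, 19 and 20 and without array 09 (0 to 1 with each array left out). In the same order 97, 187, 73 and 100 of all 8695 probe sets passed. The fits with the block and without arrays 09, 10, 19 and 20 gave Slc22a30 the same difference. For sex 5 passed, and 2 did with the random block, 1 without arrays 05 to 08 and 1 at 3 days only, which was Slc22a30 in each. In the same order 19, 19 and 47 of all 8695 probe sets passed. For days 3 passed, and 0 did with the random block, 0 without arrays 05 to 08 and 0 in males only. In the same order 2, 26 and 6 of all 8695 probe sets passed. Without arrays 09, 10, 19 and 20, 5 members passed for days, as did 3896 of all 8695 probe sets. The labels give the groups no shared replicate numbers, and the pairs and the block used array set. Intensity over background is not known, which limits the dim members Slc22a4, Slc22a21 and Slc22a23 and the female values of Slc22a30. It also limits the list genes Acsm3 and Abcb1b, with median intensities of 38.75 and 90.45.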
